A study of Oryctolagus cuniculus with 34 samples.

Results

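ATXN7L2 (ataxin 7 like 2) was described here together with ATXN7, ATXN7L1, ATXN7L3 and USP22, which make 5 of the 18176 genes counted in the supraspinatus of rabbits, a shoulder muscle of the rotator cuff. ATXN7L2 was chosen from earlier results of these data because its level differed between gel-treated and repaired muscle in the short term and not in the long term. Its values in any comparison of gel with repair, and in the comparisons with the injured muscles that share those libraries, are therefore descriptions with no test. The other 4 genes were chosen by name, as relatives of ATXN7L2 or partners in the same complex, and were tested.

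ATXN7L2, ATXN7 and ATXN7L1 are paralogues, and each can take the same place as a subunit of SAGA, a large coactivator complex that works at the promoters and gene bodies of transcribed genes. SAGA holds an acetyltransferase module that marks histone H3 and a deubiquitinase module, in which USP22 is the enzyme that takes ubiquitin off histone H2B, ATXN7L3 and ENY2 are adaptors needed for its activity, and ATXN7 or a paralogue ties the module to the rest of the complex. ATXN7 is best known in the nervous system, where expansion of its polyglutamine tract causes spinocerebellar ataxia type 7, with loss of cerebellar neurons and photoreceptors.

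The study measured gene expression by bulk RNA sequencing in 34 rabbit supraspinatus libraries. In the short term there were 5 muscles with repair only, 5 treated with a matrix gel, prepared from the extracellular matrix of tissue and given with the repair, and 4 with injury only. In the long term there were 5 muscles with repair only, 5 treated with the gel and 10 uninjured muscles. How long the terms were, and the strain, sex and age of the rabbits, is not stated in the sources used here, and no short-term uninjured or long-term injury-only muscle was analysed here. Animal codes in the file names tie each of the 10 uninjured libraries to 1 long-term operated library.

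The 14 short-term libraries held 26904529 to 32313295 counts each, and the 20 long-term ones held 12582302 to 15019158, so the term and the sequencing depth cannot be told apart. The label of muscle fitted the markers: 6 of 10 fibre markers were in the files, and their summed level was between 34800 and 251110 CPM in the short-term libraries, with none at 0. Levels are CPM, counts relative to the size of the library, with sizes scaled by the trimmed mean of M-values (TMM), and the scaling factors spanned 0.741 to 1.52 in the short term and 0.724 to 1.13 in the long term. The libraries that stood furthest apart had mean correlations with their own group of 0.887 (short-term repair 4), 0.899 (short-term repair 5), 0.918 (short-term injury 3) and 0.920 (long-term gel 1).

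ATXN7L2 was higher in the short-term gel muscles than in any other group. Its CPM in these 5 gel libraries was 32.7, 56.6, 60.9, 35.5 and 25.4, from 717 to 2177 reads. In the 5 short-term repair libraries it was 9.34, 18.9, 8.81, 8.35 and 9.36, from 203 to 762 reads. Injury-only muscles had 8.98, 6.98, 12.1 and 7.71. Every gel library lay above every repair and injury library, and repair 2, at 18.9, stood well above the other 4 repair libraries. The group means were 42.2 ± 15.6 CPM with gel (SD, n = 5), 10.9 ± 4.44 with repair (n = 5) and 8.93 ± 2.24 with injury (n = 4).

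**Figure D1:**
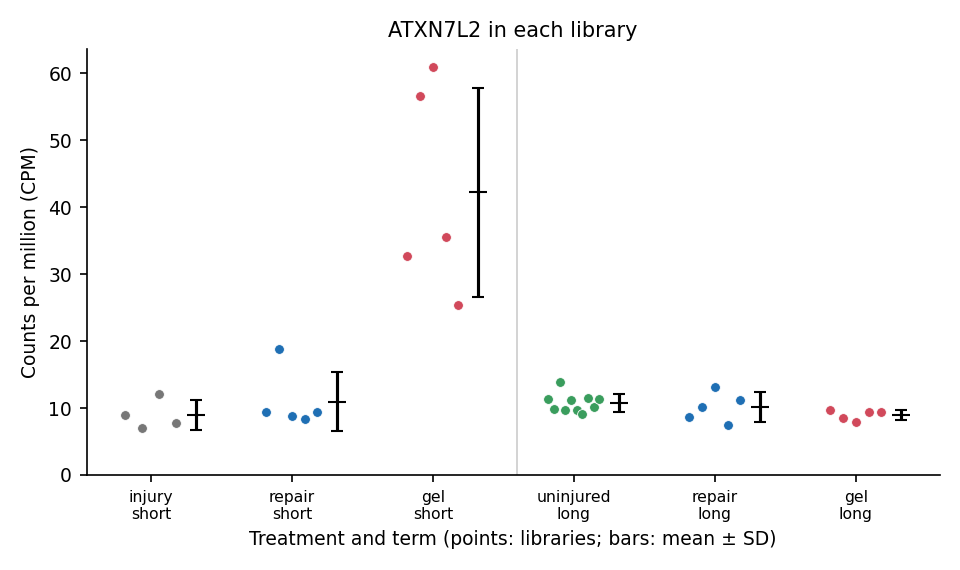
ATXN7L2 in CPM (vertical axis) in each of the 34 libraries, by treatment and term (horizontal axis). Points are libraries and bars are the mean ± SD of a group. The 5 short-term gel libraries, at 25.4 to 60.9, lie above the other 29, at 6.98 to 18.9.

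Long-term levels of ATXN7L2 were low and close together. Repair libraries had 8.71, 10.1, 13.1, 7.49 and 11.2 CPM, from 96 to 185 reads. Gel libraries had 9.74, 8.49, 7.98, 9.47 and 9.38 CPM, from 93 to 121 reads. The 10 uninjured libraries ran from 9.07 to 13.9, with a median of 10.6. The 3 groups overlapped. The coefficient of variation was 8.24% with gel, 21.6% with repair and 12.9% without injury, and 37.0% in the short-term gel group, which held 717 to 2177 reads. Counting noise is part of the spread at 93 to 121 reads, and its share was not tested, so a tighter gel group is not shown.

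Ordered by their medians, the groups for ATXN7L2 ran from short-term gel (35.5 CPM) through long-term uninjured (10.6), long-term repair (10.1), long-term gel (9.38) and short-term repair (9.34) to short-term injury (8.35). Only the step from short-term gel to the next group had no overlap, and no other pair of neighbours in this order was apart beyond its spread. Over all 29 other libraries ATXN7L2 ran from 6.98 to 18.9 CPM with a median of 9.65. The lowest gel library was 1.35 times the highest of these, which was repair 2, and 1.83 times the next highest, an uninjured muscle at 13.9. Of the 12935 genes tested over all libraries, 22 (0.17%) had every short-term gel library above the other 29. By the size of this gap ATXN7L2 ranked 2 among them, after MCOLN2, a cation channel of endolysosomes, at 1.43. MCOLN2 was very low, with a mean log2 CPM of -1.98 against 3.62 for ATXN7L2. Since ATXN7L2 was chosen for its level in these gel libraries, its rank is a description.

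This separation depended on the scaling of the libraries. On total counts alone, with no scaling factors, ATXN7L2 was between 25.5 and 78.9 CPM with gel, between 6.75 and 25.7 with repair and between 5.17 and 17.9 with injury in the short term. On that scale 4 of the 5 gel libraries lay above all 29 others, and the lowest, at 25.5, was just under short-term repair 2, at 25.7. There 11 genes separated in this way, without ATXN7L2.

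The fitted log2 difference of ATXN7L2 between gel and repair in the short term was 1.98 (SE 0.30), a 3.93-fold higher level with gel, which ranked 92 from the highest of 13526 genes. Without gel replicate 3 it was 1.81, and without repair replicate 2 it was 2.27. Total counts in place of scaled sizes gave 1.76. In this comparison edgeR's quasi-likelihood test called 0 of 13526 genes at an adjusted p under 0.05 (0% of genes tested), while 1404 (10.4%) had an unadjusted p under 0.05. By DESeq2 127 genes passed, and by limma voom 3. Every gel library was above every repair library for 120 genes (0.887%).

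Against injury alone the gel muscles had a fitted ATXN7L2 difference of 2.26 (SE 0.33), and all 5 gel libraries lay above all 4 injury libraries, as they did for 545 genes (4.03%). Repair alone differed from injury by 0.29 (SE 0.31), without repair replicate 2 by -0.05 and on total counts by 0.61. These comparisons share libraries with the one between gel and repair.

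The long-term ATXN7L2 difference of gel from repair was -0.19 (SE 0.14), between -0.28 and -0.08 when 1 library at a time was left out. Subtracting the gel difference of the short term from that of the long term gave -2.12 (SE 0.31), between -2.41 and -1.95 with 1 library left out. Across the 12935 genes edgeR called 2 for this difference between terms (0.0155%), namely XBP1, which drives transcription in the unfolded protein response, at 1.88 (SE 0.29, adjusted p = 0.0015), and ATXN7L2, whose place there followed from its choice and is no test of it. XBP1 is named only because so few genes were called. On total counts 1 gene was called, with a difference above 0, so ATXN7L2 was not among the genes called, which is no test of it either.

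The comparison of all 10 long-term operated muscles with the 10 uninjured ones did not enter the choice of ATXN7L2. It gave a log2 difference of -0.17 (SE 0.10), with an adjusted p of 0.529 by edgeR, and ATXN7L2 did not pass. In this comparison 3 of 11605 genes passed (0.0259%), namely UCP2, a mitochondrial carrier, at 2.34, SLC7A8, an amino acid transporter, at 0.93, and DNASE1, a secreted nuclease, at -1.30. With the animal code as a block 0 genes passed. Paired by animal code, ATXN7L2 in the gel muscles lay below the uninjured muscle of the same code in 5 of 5 pairs, by 0.51, 0.18, 0.28, 0.28 and 0.27 on the log2 scale, a mean of -0.31 ± 0.12 (SD, n = 5 pairs). Repaired muscles lay below theirs in 2 of 5 pairs, with a mean of -0.05 ± 0.26, and the range of the 5 was -0.37 to 0.23. The long-term gel and repair libraries, taken apart, entered the choice of ATXN7L2, so the pairs of each group are descriptions with no test. The share of all genes with 5 of 5 pairs on 1 side was not counted.

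Every marker list of another cell type overlapped between short-term gel and repair libraries. The summed level of 6 lymphocyte markers was 2.48 to 11.9 CPM with gel, 0.37 to 3.85 with repair and 0.383 to 2.03 with injury, so that gel did not overlap injury. Satellite cell and myoblast markers, 5 of 6 in the files, summed to 164 to 3182 CPM with gel and 71.3 to 384 with repair. By gel replicate they were 244, 900, 3182, 164 and 175 CPM, highest in replicates 3 and 2, as ATXN7L2 was. The lymphocyte markers (3.31, 5.48, 11.9, 4.33 and 2.48 CPM) were also highest there. So were the tenocyte markers and the pericyte and smooth muscle markers, while the other lists were not. Muscle fibre markers ran from 74737 to 155950 CPM with gel and from 34800 to 201560 with repair. None of these lists had a member at 0 in all short-term libraries of a group, and their part in the level of ATXN7L2 was not tested. In bulk tissue, fewer cells of a type and less RNA per cell cannot be told apart.

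USP22, the deubiquitinase of SAGA, had its lowest median in the short-term gel muscles, where ATXN7L2 had its highest. Short-term gel libraries had 33.7, 39.6, 27.8, 31.9 and 31.6 CPM, repair libraries 40.3, 41.1, 41.5, 47.3 and 36.9, and injury libraries 51.6, 47.2, 27.1 and 42.3. Gel and repair overlapped at their edges, with gel replicate 2 above repair replicate 5. The fitted gel difference from repair was -0.29 (SE 0.16, adjusted p = 0.539, edgeR) and that from injury -0.32 (SE 0.17, adjusted p = 0.321, edgeR). The latter passed with limma voom, at -0.46 (adjusted p = 0.013), and in edgeR without short-term repair 4 and injury 3, at -0.54 (adjusted p = 0.0194). In those settings 28.1% and 18.9% of all genes passed. Short-term repair 5, whose correlation with its group (0.899) was below that of injury 3 (0.918), was kept in the latter.

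Long-term USP22 was between 58.5 and 100.2 CPM in uninjured muscle (median 82.5). Repair libraries had 80.4, 84.5, 67.3, 92.6 and 95, and gel libraries 184.4, 95.8, 119.7, 86.1 and 75.7. The groups overlapped, and gel replicate 1 alone was far above the rest. Gel differed from repair by 0.39 (SE 0.20, adjusted p = 0.375, edgeR), and by 0.15 without gel replicate 1. The difference of operated from uninjured muscle was 0.30 (SE 0.14, adjusted p = 0.418). The gel difference of the long term minus that of the short term was 0.75 (SE 0.28, adjusted p = 0.288), and 0.49 without long-term gel 1.

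ATXN7, the founding member of the family, also had its lowest median in the short-term gel group. Its CPM there was 16.5, 17.03, 13.6, 23.1 and 21.6, against 18.4, 18.6, 20.7, 31.7 and 16.7 with repair and 26.2, 27.0, 24.0 and 27.3 with injury. Gel and repair overlapped, and all 5 gel libraries lay below all 4 injury libraries, as they did for 451 genes (3.33%). The fitted difference was -0.16 (SE 0.19, adjusted p = 0.772, edgeR) from repair, or 0.01 without repair replicate 4, and -0.48 (SE 0.20, adjusted p = 0.231, edgeR) from injury. As with USP22, the latter passed with limma voom (-0.51, adjusted p = 0.0172) and in edgeR without short-term repair 4 and injury 3 (-0.57, adjusted p = 0.0395). These settings passed 28.1% and 18.9% of all genes. On total counts the gel libraries, at 16.3 to 25.3 CPM, overlapped the injury libraries, at 19.4 to 35.6.

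All 3 long-term groups had a higher median of ATXN7 than the short-term groups. Uninjured muscle ran from 33.5 to 49.5 CPM with a median of 43.9, repair libraries had 35.8, 47.1, 51.9, 40.7 and 41.2, and gel libraries 13.6, 39.2, 42.0, 47.3 and 46.4. Apart from gel replicate 1, at 13.6, the other 19 long-term libraries lay above all 14 short-term ones, whose highest was 31.7. For USP22 all 20 long-term libraries, from 58.5 CPM, lay above the 14 short-term ones, up to 51.6. Of 12935 genes, 211 (1.63%) had every long-term library above every short-term one. On total counts USP22 still did so (61.9 against 61.2), while for ATXN7 it was 17 of 20 libraries. The terms also differed in sequencing depth, and the 2 cannot be told apart.

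**Figure D2:**
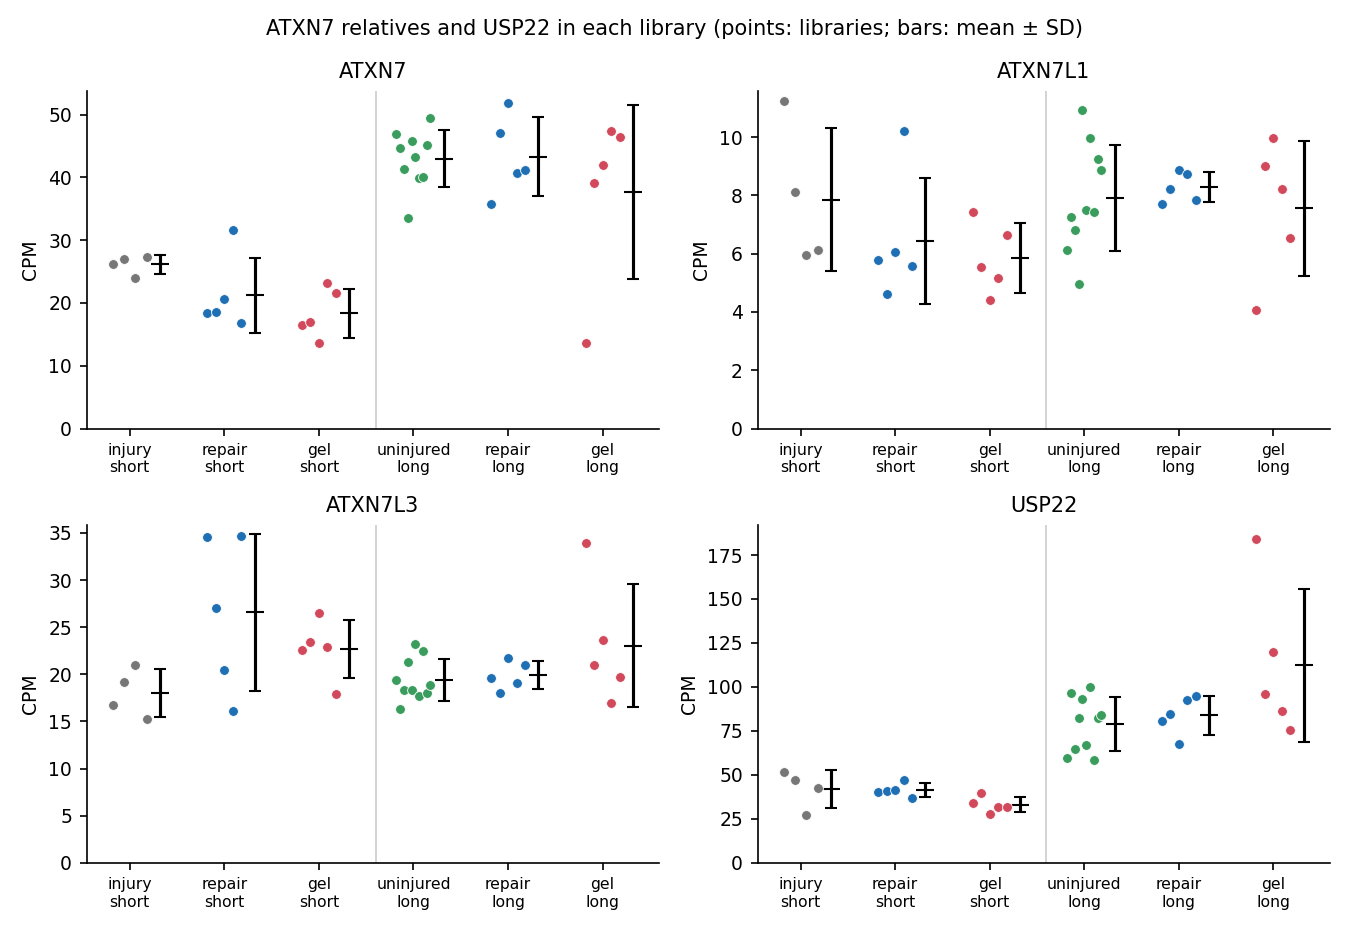
ATXN7, ATXN7L1, ATXN7L3 and USP22 in CPM (vertical axes) in each library, by treatment and term. Points are libraries and bars are the mean ± SD of a group. No short-term gel group stands above its repair group as for ATXN7L2, and long-term gel replicate 1 is the lowest ATXN7 value of the long term (13.6) and the highest USP22 value (184.4).

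ATXN7L3, the adaptor that activates USP22, spread widest in the short-term repair group. Short-term repair libraries had 34.6, 27.1, 20.5, 16.1 and 34.7 CPM, which enclosed the gel libraries at 22.5, 23.4, 26.5, 22.9 and 17.9. Injury libraries had 16.8, 19.2, 21.0 and 15.2. The groups overlapped. Gel differed from repair by -0.20 (SE 0.21, adjusted p = 0.747, edgeR), and repair from injury by 0.55 (SE 0.22, adjusted p = 0.322, edgeR). The latter passed with limma voom (0.58, adjusted p = 0.0174) and in edgeR without the 2 libraries that lay apart (0.71, adjusted p = 0.0171). In those settings 34.8% and 33.3% of all genes passed. In the long term ATXN7L3 was 16.3 to 23.2 CPM in uninjured muscle (median 18.6), 17.98 to 21.8 with repair and 16.9 to 33.9 with gel. Gel differed from repair there by 0.18 (SE 0.15, adjusted p = 0.546), and by 0.02 without gel replicate 1. Operated muscle differed from uninjured by 0.14 (SE 0.10, adjusted p = 0.619). All 5 repaired muscles lay above the uninjured muscle of the same code, by 0.01 to 0.25 on the log2 scale, and 3 of 5 gel muscles did. The share of all genes with 5 of 5 pairs on 1 side was not counted, so these counts are descriptions.

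ATXN7L1, the other paralogue, did not pass the edgeR test for gel against repair in either term. In the short term its CPM was 7.44, 5.55, 4.42, 5.15 and 6.66 with gel, 5.78, 4.63, 6.06, 10.2 and 5.58 with repair and 11.2, 8.11, 5.97 and 6.12 with injury. All 3 ranges overlapped. Gel differed from repair by -0.10 (SE 0.24, adjusted p = 0.904, edgeR), a value that was 0.11 without repair replicate 4. Long-term ranges were 4.97 to 10.9 without injury, 7.71 to 8.87 with repair and 4.08 to 9.95 with gel. The long-term gel difference was -0.15 (SE 0.21, adjusted p = 0.741).

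Of the 4 relatives, 0 passed the edgeR test in any of the 6 comparisons, where 0% to 0.0259% of all genes passed. At an unadjusted p under 0.05 there were 0 for gel against repair in either term (long term 14.2% of all genes). There was 1 for gel against injury (ATXN7, with 18.4% of all genes), 1 for repair against injury (ATXN7L3, 14.6%), 1 for operated against uninjured (USP22, 11.7%) and 1 for the difference between terms (USP22, 12.7%). DESeq2 called 0 of them in all 6, and its counts over all genes are given further below. For repair against injury limma voom called ATXN7 (-0.44, adjusted p = 0.0274) and ATXN7L1 (-0.63, adjusted p = 0.036) besides ATXN7L3. So did edgeR without the 2 libraries that lay apart (ATXN7 at -0.59, adjusted p = 0.0273, and ATXN7L1 at -0.69, adjusted p = 0.0456). All 4 fitted differences of gel from repair in the short term lay below 0, with a median of -0.18, where 45.7% of all genes lay above 0 and the median of all genes was -0.04. Total counts moved the median of all genes to -0.24 and the 4 relatives to values between -0.49 and -0.24. ATXN7L2, at 1.98, was the member of the family above 0 in this comparison under both scalings, and it was chosen for this difference.

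**Figure D3:**
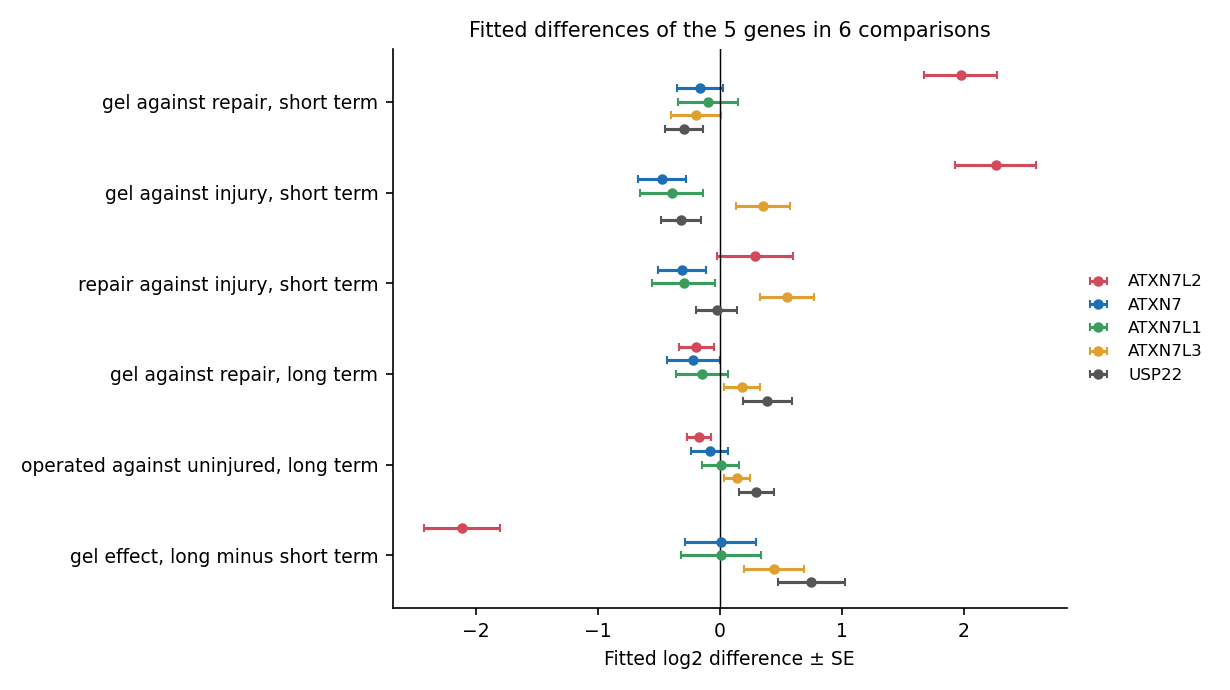
Fitted log2 differences (horizontal axis) with their standard errors for the 5 genes in 6 comparisons (vertical axis). Values of ATXN7L2 are descriptions in all but the comparison of operated with uninjured muscle. ATXN7L2 lies at 1.98 and 2.26 in the short-term gel comparisons and at -2.12 for the difference between terms, and every relative lies between -0.48 and 0.75.

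The other subunits of SAGA showed how the rest of the complex behaved. Of 23 symbols listed, 18 were in the files, and in the short term 8 of these had a fitted gel difference above 0 and 10 below, with a median of -0.03 against -0.04 over all genes. None passed the test with edgeR, DESeq2 or limma voom, 0 had an unadjusted p under 0.05 (10.4% of all genes), and the smallest adjusted p was 0.481. The acetyltransferase KAT2B was lowest, at -0.50 (SE 0.26, adjusted p = 0.534, edgeR), and TAF10, a core subunit shared with TFIID, was highest, at 0.37 (SE 0.17). ENY2, the second adaptor of the deubiquitinase module, lay at -0.10 (SE 0.20), and KAT2A, the other acetyltransferase, at 0.06 (SE 0.21). USP27X and USP51, which can use the same adaptors in place of USP22, lay at -0.12 (SE 0.34) and 0.15 (SE 0.69). On total counts the median of the 18 fell to -0.24, with that of all genes at -0.24.

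Within the modules the short-term gel differences from repair ran from -0.12 (USP27X) to 0.15 (USP51) in the deubiquitinase module, and from -0.50 (KAT2B) to 0.09 (SGF29) in the acetyltransferase module. In the core they ran from -0.39 (TAF5L) to 0.37 (TAF10). SF3B3, a splicing factor subunit that is also part of SAGA, lay at -0.20. The 1.98 of ATXN7L2 was outside all of these ranges, which is a description, since the gene was chosen for this difference. Over the long term 17 subunits were tested, with 9 above 0 (46.3% of all genes), 8 below, a median of 0.01 and extremes of -0.24 (ENY2) and 0.55 (TAF6L, adjusted p = 0.302, edgeR). TAF6L alone of the 17 had an unadjusted p under 0.05, where 14.2% of all genes did, and 0 passed. For the difference between terms 13 of 17 lay above 0 (55.5% of all genes), with a median of 0.16 against 0.06 over all genes, and 0 passed. Against injury limma voom called 4 of the 18 (KAT2B, TADA1, TAF12 and TAF5L), where it called 28.1% of all genes and edgeR called 0 of the 18.

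Lists of other histone-modifying genes were read in the same way. The 5 genes of the H2B ubiquitin ligase machinery, which adds the ubiquitin that USP22 removes, lay between -0.35 (WAC) and 0.12 (UBE2A) for gel against repair in the short term, 1 above 0 and 4 below. The 10 genes of other histone deubiquitinases, some of which act on histone H2A, lay between -0.37 (USP46) and 0.27 (USP49), 5 above and 5 below. ATAC, a sister complex that shares the acetyltransferases of SAGA but has no deubiquitinase module, had 8 genes in the files, 1 above 0 and 7 below, from -0.32 (YEATS2) to 0.28 (POLE4), with a median of -0.26. None of these 23 genes passed with edgeR, DESeq2 or limma voom in this comparison, and POLE3 alone had an unadjusted p under 0.05, as 10.4% of all genes did.

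**Figure D4:**
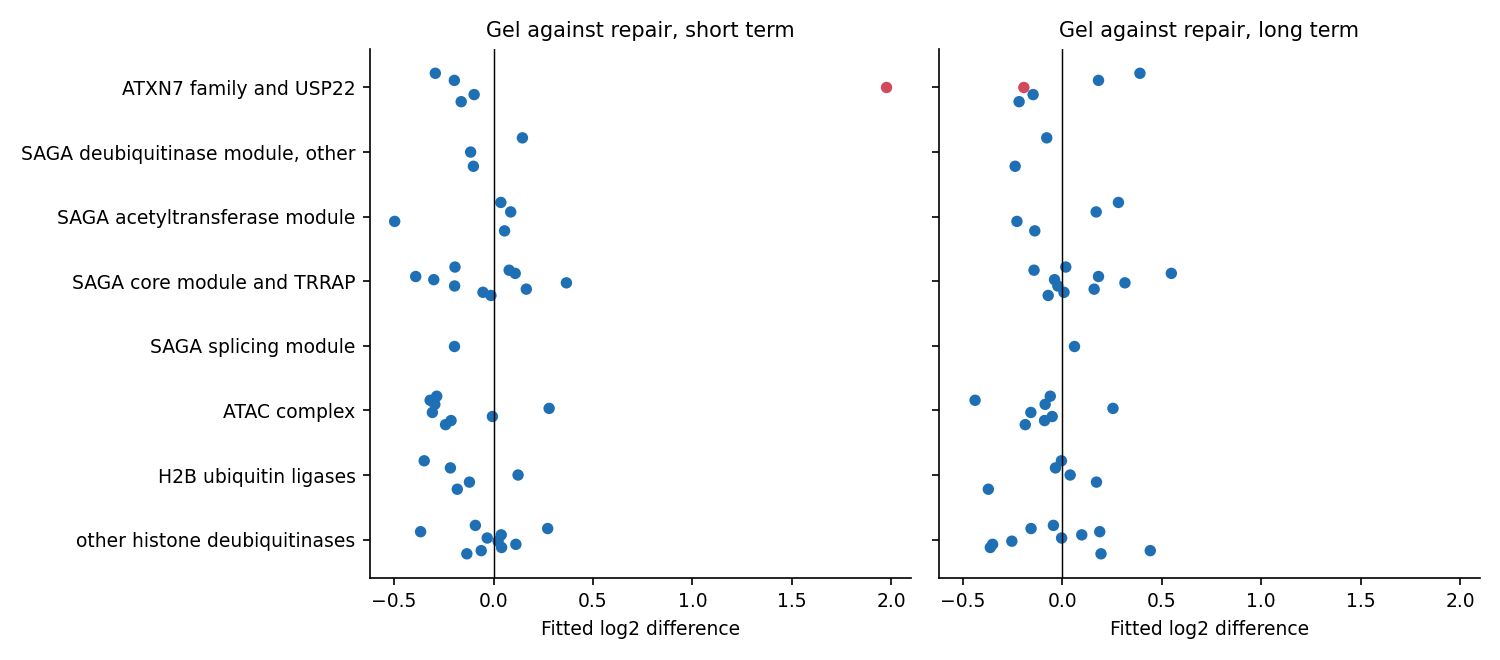
Fitted log2 differences of gel from repair (horizontal axes) in the short and the long term for each gene of the ATXN7 family with USP22, the other SAGA modules and 3 related lists (rows). Each point is a gene, with ATXN7L2 in red at 1.98 in the short term and -0.19 in the long term. Every other point in the short term lies between -0.50 and 0.37. ATXN7L2 was chosen for its differences of gel from repair, so its place is a description.

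Genes beside ATXN7L2 on the chromosome were examined because the counts may not separate overlapping genes. In the RefSeq annotation of another rabbit assembly, used here for the order of genes only, GPR61, AMIGO1 and CYB561D1 come before ATXN7L2 and SYPL2, PSMA5 and SORT1 after it, among genes with counts in the files. CYB561D1, a membrane cytochrome listed in the files as LOC103344979, is the next entry on 1 side. It had 9.39, 7.29, 8.48, 8.50 and 8.50 CPM with gel and 10.6, 8.02, 5.90, 5.47 and 5.89 with repair, which overlapped. Its fitted difference was 0.27 (SE 0.21, adjusted p = 0.667, edgeR).

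SYPL2, a protein of the muscle triad and the next entry on the other side of ATXN7L2, had 595, 1106, 692, 742 and 648 CPM with gel and 332, 634, 517, 776 and 190 with repair. These ranges overlapped, as did that of injury alone, from 271 to 1037. The fitted gel difference from repair was 0.67 (SE 0.39, adjusted p = 0.570, edgeR). GPR61, an orphan receptor, was low throughout, with 2.50 to 5.31 CPM with gel and 1.47 to 2.99 with repair, and its difference was 0.88 (SE 0.28, adjusted p = 0.413). AMIGO1, PSMA5 and SORT1 lay at 0.01, 0.07 and -0.07. Of the 6 neighbours 0 passed, and GPR61 alone had an unadjusted p under 0.05 (p = 0.00787, edgeR), as 10.4% of all genes did. How reads were assigned between ATXN7L2 and its neighbours was not tested.

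**Figure D5:**
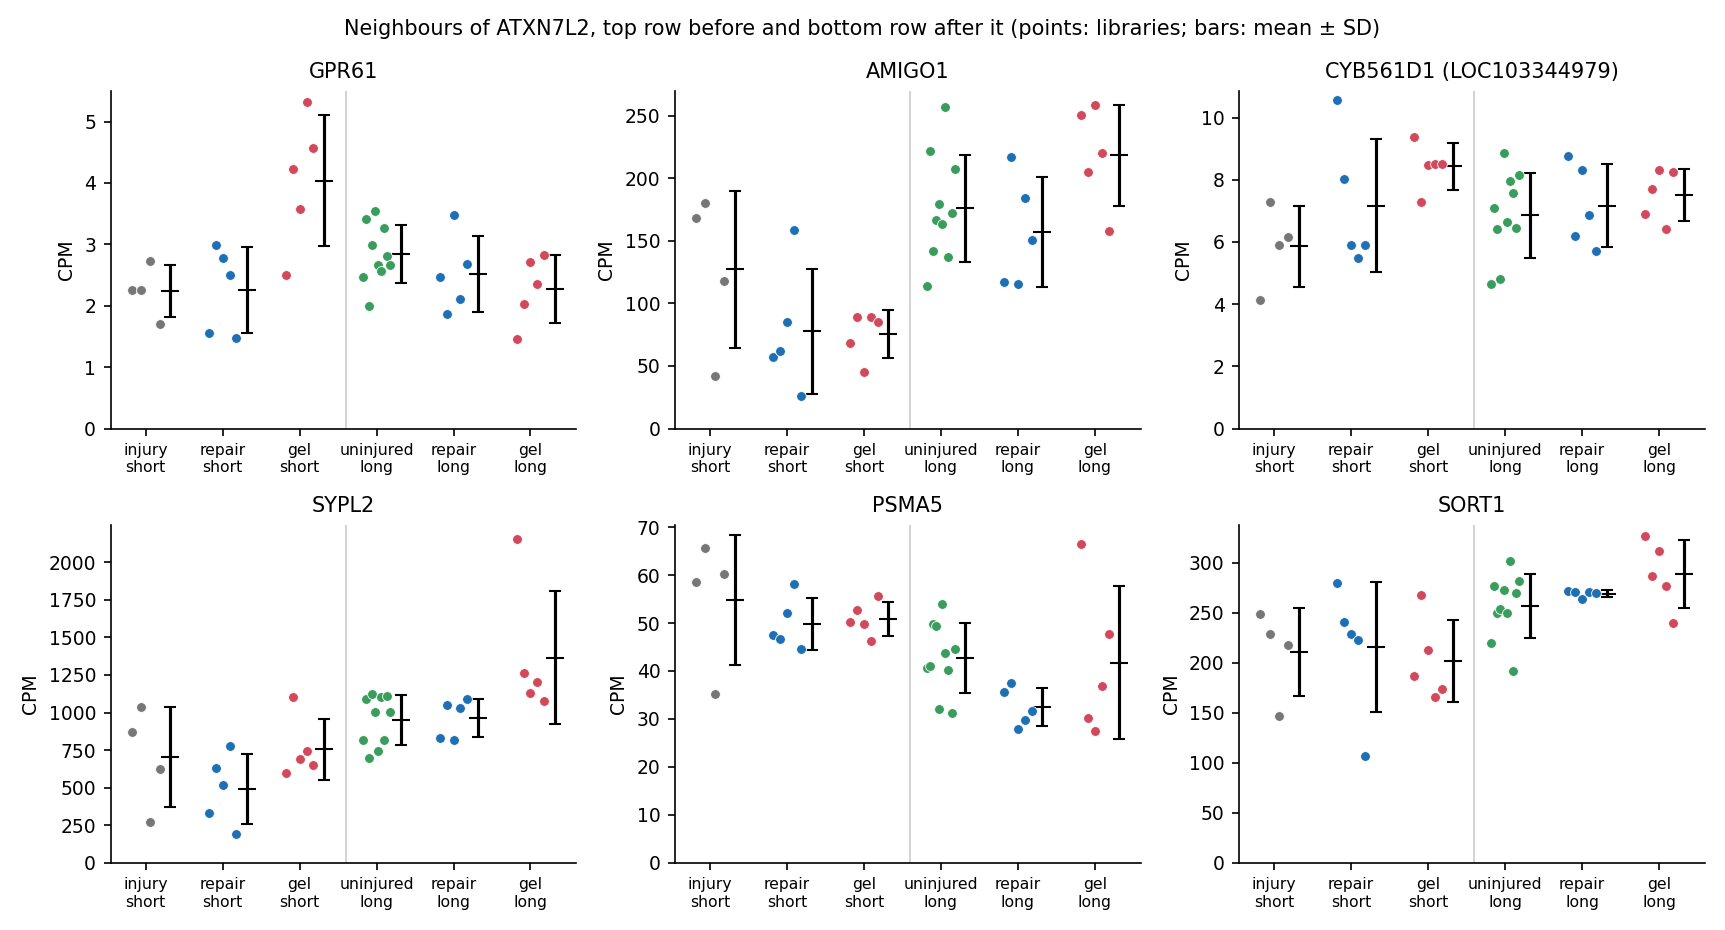
CPM (vertical axes) of the 3 genes before ATXN7L2 (top row) and the 3 after it (bottom row) in each library, by treatment and term. Points are libraries and bars are the mean ± SD of a group. Gel and repair libraries overlap in the short term for each of the 6 genes, as for SYPL2 at 595 to 1106 and 190 to 776.

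The genes most like ATXN7L2 were ranked by Pearson's r of log2 CPM over the 34 libraries, with the mean of each term subtracted, among 9614 genes. They were PPIF, the mitochondrial cyclophilin D (r = 0.82), MUSTN1, a small nuclear protein of muscle and skeletal tissue (0.81), ITGB1BP2, the muscle chaperone melusin (0.80), SMPX, a small sarcolemmal muscle protein (0.79), and TNNT2, cardiac troponin T, which developing skeletal muscle also expresses (0.79). The likeness came mainly from the short term: for PPIF r was 0.92 over the short-term libraries and 0.13 over the long-term ones, while for TNNT2 it was 0.81 and 0.65. The libraries share their scaling, and the short-term gel libraries that chose ATXN7L2 enter each r, so the ranking is a description of that pattern. By Spearman's rho 2 of the 5 genes were still among the top 5.

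PPIF had 33.0, 45.98, 56.0, 42.2 and 30.3 CPM with gel in the short term and 13.8, 21.5, 12.8, 18.2 and 9.55 with repair. These did not overlap, and the gel libraries also lay above the injury libraries, at 15.5 to 19.4. Every gel library lay above every repair library for 0.887% of all genes, and above every injury library for 4.03%. In the long term PPIF was 34.9 to 62.9 with gel and 32.4 to 55.2 without injury, so that the short-term gel libraries overlapped uninjured muscle, which those of ATXN7L2 did not. Since these 5 genes were picked for their likeness over the same libraries, their gel differences from repair are descriptions with no test. That of PPIF was 1.49 (SE 0.22), and MUSTN1 lay at 1.51 (SE 0.46), ITGB1BP2 at 1.42 (SE 0.56), SMPX at 1.44 (SE 0.38) and TNNT2 at 2.77 (SE 1.37). Without gel replicate 3 TNNT2 was 1.49 and ITGB1BP2 0.85.

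With the mean of each of the 6 groups subtracted, only the spread within groups was left. TNNT2 then ranked first (r = 0.74), and ADAMTS20, a secreted metalloprotease (0.73), EFR3B, a plasma membrane scaffold (0.71), and TSPAN9, a tetraspanin (0.71), were also among the top 5. Over the short-term libraries r was 0.78, 0.86, 0.82 and 0.88 in this order, and over the long-term ones 0.58, 0.48, 0.52 and -0.10. Among the short-term gel muscles ATXN7L2 and TNNT2 were both highest in replicates 3 (60.9 and 761 CPM) and 2 (56.6 and 206 CPM). The other gel libraries had 78.3, 75.3 and 12.9 CPM of TNNT2. Of the relatives, ATXN7L3 alone had an r with ATXN7L2 above 0 over the 34 libraries, at 0.32 with group means subtracted and 0.18 with term means subtracted. In the same order r was -0.21 and -0.33 for ATXN7, -0.39 and -0.36 for ATXN7L1 and -0.25 and -0.41 for USP22. Over the long-term libraries alone, with term means subtracted, r was -0.07 for ATXN7L3 and 0.20 for ATXN7.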

How the data were processed

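Raw read counts per gene, 1 file per library, were deposited by the authors. The submitters' processing notes name STAR, edgeR and OryCun2.0. Counting tool, annotation, strand setting and versions are not stated in the sources used here. A commercial laboratory extracted the RNA and made the libraries, per the labels' protocols. Of 18210 entries per file, 26 that had turned into dates in 1 file were left out of all libraries (at most 0.163% of counts), and 15 entries of 7 repeated symbols were summed.

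The main test was that of edgeR 4.0.16 in R 4.3.3 (TMM, filtering by expression, robust quasi-likelihood test, Benjamini-Hochberg adjustment over all genes tested, 2-sided, threshold 0.05). The 14 short-term, the 20 long-term and, for the difference between terms, all 34 libraries were fitted. Standard errors are the log2 difference over the square root of F. Log2 CPM used a prior count of 2. Precision rests on the number of libraries and on the reads behind each value, which are given for ATXN7L2. Scripts were tested on simulated data. Of 91 pairs of libraries within groups 0 were identical, and chi-square per degree of freedom was at least 9.86. Whether a group's libraries are from separate animals is not in the labels, so p-values measure the spread between these libraries, which may in part be technical.

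Members and lists were chosen with earlier results of these data known. Named were the 5 members, the extremes of each list and any member past the threshold, the 5 genes most like ATXN7L2 by each centring, and 3 neighbours on either side. One gene that this rule names is not reported here. MCOLN2, XBP1, UCP2, SLC7A8, DNASE1, ENY2, KAT2A, TAF6L and the genes listed by limma voom or by an unadjusted p were named after their values were seen. Same-numbered libraries were not treated as pairs: deviations from the group means correlated above 0.1 in 8 of 28 pairs, and in 6 of 10 pairs of the same animal code. The codes were used to set muscles side by side and as a block. Alternatives were DESeq2 1.42.0, its size factors, limma 3.58.1 (voom with sample weights), no filter, replicate and animal blocks, all libraries or only the compared groups in a fit, and libraries left out. Total counts without scaling and the animal block for gel against repair were added after seeing the data.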

Additional observations from a re-analysis of the deposited data

Results flagged for a closer look

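Within groups of 4 to 10 libraries, a library that stood far from the others relative to the group's range was sought for the 5 genes in 30 combinations of gene and group. Chance gives about 1 in 20 such combinations, and 5 were found. ATXN7L2 in short-term repair 2 was at 18.9 CPM, above the other 4 repair libraries at up to 9.36. ATXN7L2 in the uninjured library 3 was at 13.9 CPM, above the next at 11.55. ATXN7 was high in short-term repair 4, at 31.7 CPM, and low in long-term gel 1, at 13.6 CPM. ATXN7L1 was high in short-term repair 4 as well, at 10.2 CPM. Short-term repair 4 and long-term gel 1 are also among the libraries with the lowest correlation with their groups.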

How the results depend on the processing

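ATXN7L2 kept the direction of its gel difference from repair in the short term (1.63 to 1.98 over 9 alternatives), in the long term (-0.34 to -0.15 over 9) and between terms (-2.10 to -1.74 over 7). Counts of genes called moved. With DESeq2 they were 127, 788, 242, 7, 125 and 28 for gel against repair, gel against injury and repair against injury in the short term, gel against repair and operated against uninjured in the long term, and the difference between terms. Limma voom gave 3, 3795 and 4703 in the short term, 22 for operated against uninjured and 5 between terms. All 34 libraries in 1 fit gave 93, 1085 and 626 in the short term and 1 each in the long term, and only the groups compared gave 7 for gel against injury. Without short-term repair 4 and injury 3 counts were 13, 2577 and 4556, and 9 between terms. With total counts 1 gene was called between terms, with a difference above 0. ATXN7L2 was not called there, which is no test of it, since it was chosen for this difference. Leaving out 1 library at a time gave 0 to 2 for gel against repair (2 without repair 2), 0 to 382 for gel against injury (382 without injury 3) and 0 to 34 for repair against injury (34 without repair 4) in the short term. It gave 0 to 109 for operated against uninjured (109 without long-term repair 2, 0 without each of 8 others) and 2 to 9 between terms (9 without short-term repair 4). With the replicate block or the animal block 0 genes were called for operated against uninjured, and no other count moved by over 1.5 times.

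Small differences changed sign, and the cause was not tested. For gel against repair in the short term ATXN7 was 0.017 without the libraries that lie apart, ATXN7L1 was 0.17 with limma voom and 0.12 without those libraries, ADAMTS20 was -0.23 with limma voom, and AMIGO1 was -0.028 with no filter and -0.040 with all 34 libraries. Total counts gave -0.091 for AMIGO1, -0.12 for PSMA5 and -0.057 for ADAMTS20, and, for repair against injury, 0.016 for ATXN7, 0.087 for ATXN7L1 and 0.43 for USP22. USP22 in that comparison was 0.027 with the replicate block. In the long term ATXN7L1 for gel against repair was 0.031 with limma voom and 0.082 with the animal block, where ATXN7L3 was -0.063, and for operated against uninjured it was -0.00015 with no filter and -0.012 on total counts. Between terms ATXN7L1 was -0.11 with limma voom, -0.019 with the replicate block, -0.032 on total counts and -0.21 without the libraries that lie apart, and ATXN7 was -0.044 with the block and -0.18 without those libraries. With 1 library left out, short-term gel against repair ran from -0.27 to 0.012 for ATXN7, -0.21 to 0.11 for ATXN7L1, -0.24 to 0.42 for AMIGO1, -0.25 to 0.029 for SORT1 and -0.090 to 0.41 for ADAMTS20, and USP22 for repair against injury from -0.24 to 0.082. Long-term ATXN7L1 ran from -0.26 to 0.011 for gel against repair and from -0.051 to 0.082 for operated against uninjured, and ATXN7 from -0.13 to 0.019 for the latter. Between terms ATXN7 ran from -0.18 to 0.20 and ATXN7L1 from -0.21 to 0.16. Long-term operated libraries held 93 to 185 reads of ATXN7L2, and the part of depth in small differences there was not tested.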
